A study of Gallus gallus with 6 samples.

Results

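The 22 nt microRNAs of the early chick embryo heart were compared with those of the late heart. The early libraries were day 4 (HH24) and day 6 (HH29) of incubation, and the late libraries were day 12 (HH38) and day 14 (HH40), so that 4 of the 6 libraries of the series were used. HH numbers are the Hamburger-Hamilton stages of the chick embryo. From the list of known microRNAs of each library only the mature sequences of exactly 22 nt were kept, each counted once whatever its number of loci. The 4 lists held 159 known sequences of any length, of which 88 were 22 nt long, and 14 of these 88 were listed in all 4 libraries. A sequence was placed on the late or the early side when its share of the 22 nt known reads in both libraries of that group lay above its share in both libraries of the other group.

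Small RNA had been isolated from dissected hearts of Gallus gallus embryos, with no treatment named in the labels, and sequenced on an Illumina instrument, with 1 library for each stage made from the RNA pool of that stage. How many hearts went into a pool is not stated. The 2 libraries of a group were different stages and not replicates, so no test was run and no p-value is given. The intervals given are 95% intervals from read counts, which cover counting error only, since reads after PCR are not independent molecules and the variation between embryos was not sampled. In a whole heart, fewer cells of a type and less of a microRNA per cell cannot be told apart.

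A mature microRNA is a single-stranded RNA of about this length, cut from a hairpin and loaded into an Argonaute protein. Its seed, the bases 2 to 8 from the 5′ end, pairs with messenger RNAs and lowers their translation and stability. MicroRNAs with the same seed form a family and can bind the same sites. In the developing heart they accompany the growth and maturation of the muscle, the vessels and the connective tissue.

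The known lists differed widely in their number of reads. From day 4 to 6, 12 and 14, the known lists summed to 17020, 3287963, 7660483 and 15957 reads. The 22 nt sequences held 97.0%, 88.3%, 71.7% and 98.0% of these reads, that is 16509, 2903259, 5496152 and 15636 reads. Each group thus paired a list with few known reads and a list with many. These sums do not measure sequencing depth. The RPM values of the lists corresponded to larger totals of 2.79e+06, 9.25e+06, 3.75e+07 and 228290 reads on days 4, 6, 12 and 14. The shares given here describe the listed reads only. In the same order of days, the lists named 19, 62, 68 and 38 sequences of 22 nt. The lowest listed abundance was 6, 6, 7 and 6 reads, or 0.0363%, 0.000207%, 0.000127% and 0.0384% of the 22 nt reads. A sequence that a list did not name was given that share as an upper bound.

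The lists held 1 sequence for each 5′ start, so a microRNA could be absent at 22 nt because another length of it was listed. The 22 nt reads of such a microRNA could exceed the lowest listed abundance, so the bound does not hold there. The lists of days 8 and 10 held 6 and 3 sequences of 22 nt among 51 and 76 known sequences, which left the middle stages out of a comparison at this length. Of the 5 microRNA numbers taken as markers of heart and skeletal muscle (miR-1, miR-133, miR-206, miR-208 and miR-499), miR-133 and miR-206 were listed in at least 1 of the 4 libraries. At any length they made up 0.0968% of known reads on day 6, 0.234% on day 12 and 1.39% on day 14, and none of the 5 was listed on day 4. The label of the day 4 library as heart could thus not be checked on its muscle microRNAs. The other libraries were checked only weakly, since miR-1, miR-208 and miR-499 were in none of the 4 lists.

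The sequences of the 11 microRNAs that lay on one side carry the result and are printed here 5′ to 3′, as DNA letters of the deposited lists, with the seed in capitals. Positions are those of the lists, on Gallus gallus v.2.1. The lists give miRBase names without letters, and a Roman numeral tells apart the 22 nt sequences that share a name, in order of their reads on day 12.
miR-10: tACCCTGTagaaccgaatttgt, chr7:17389110-17389131, minus strand, higher early.
miR-205 II: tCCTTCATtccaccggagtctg, chr26:2896068-2896089, plus strand, higher early.
miR-26: tTCAAGTAatccaggataggct, chr2:4467525-4467546, plus strand, higher late.
miR-148: tCAGTGCActacagaactttgt, chr2:32053546-32053567, minus strand, higher late.
miR-22: aAGCTGCCagttgaagaactgt, chr19:5352113-5352134, minus strand, higher late.
miR-99: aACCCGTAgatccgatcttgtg, chr1:102424345-102424366, plus strand, higher late.
miR-30 I: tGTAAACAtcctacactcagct, chr2:148331648-148331669, minus strand, higher late.
let-7 I: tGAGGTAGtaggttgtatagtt, with 4 loci, one of them chr1:73421275-73421296, plus strand, higher late.
let-7 II: tGAGGTAGtagattgtatagtt, chr12:6302556-6302577, minus strand, higher late.
let-7 IV: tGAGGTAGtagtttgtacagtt, chr12:2809135-2809156, minus strand, higher late.
let-7 V: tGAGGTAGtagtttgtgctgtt, chr1:34895692-34895713, plus strand, higher late.

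The other 3 sequences listed in all 4 libraries overlapped between the groups and are printed for comparison.
miR-92: tATTGCACttgtcccggcctgt, chr1:152248079-152248100, minus strand, overlapping.
miR-140: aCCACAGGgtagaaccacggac, chr11:21030701-21030722, plus strand, overlapping.
miR-130 I: cAGTGCAAtattaaaagggcat, chr15:408409-408430, minus strand, overlapping.

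The 4 let-7 sequences share 1 seed, and each of the other 10 sequences has a seed that no other of the 14 carries. The base at the 5′ end was T in 7 of the 9 late sequences and in both early ones, against 52 of all 88 sequences (59.1%). The median G and C content was 40.9% in the late sequences and 45.5% in all 88.

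On the 22 nt reads, 9 of the 14 sequences were higher late, 2 were higher early and 3 overlapped. That is 64.3% higher late, 14.3% higher early and 78.6% on either side, and since the 14 were all that could be compared in every library, these percentages are also the background. The late side depended on the total: with miR-10 left out of the reads, 0 of the 9 late sequences stayed on it. The median log2 ratio of late over early share, from the geometric means of the 2 libraries of each group, was 2.40 over the 14, with a range of -2.38 (miR-205 II) to 2.9998 (let-7 I). Both ends moved with the late library used: let-7 I was 1.48 without day 12 and 4.52 without day 14, and miR-205 II was -1.14 and -3.62. The 14 held 99.3%, 96.0%, 76.5% and 87.2% of the 22 nt reads on days 4, 6, 12 and 14.

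The early lists were close to a single sequence. miR-10 alone held 85.8% and 82.8% of the 22 nt reads on days 4 and 6, against 18.7% and 20.2% on days 12 and 14. The effective number of sequences, the inverse of the summed squared shares, was 1.35 and 1.45 early and 9.29 and 5.94 late. The 5 most abundant sequences held 96.8% and 95.6% of reads early and 64.8% and 79.8% late. Late, miR-26, miR-148, miR-22 and miR-181 stood beside miR-10, with miR-140 on day 14 and, on day 12, the sequence listed as both miR-204 and miR-211. miR-181 held 4.59% and 5.41% on days 12 and 14 and was listed at other lengths early. let-7 held 17.1% on day 12 and 3.30% on day 14.

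**Figure D1:**
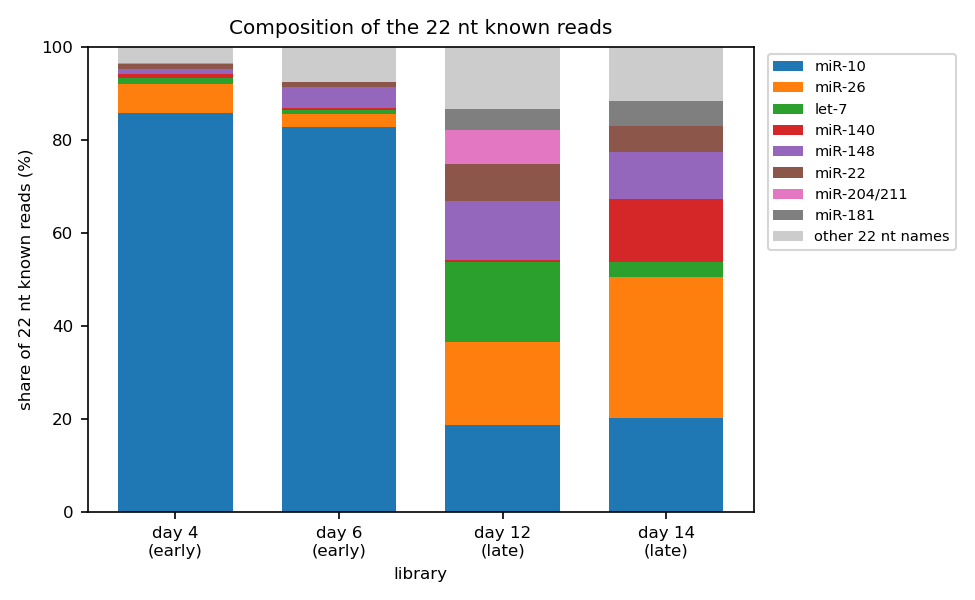
Stacked bars of the share of the 22 nt known reads (%, from 0 to 100) held by 8 microRNA names and by all other names, with 1 bar for each of the 4 libraries. miR-10 fills 85.8% and 82.8% of the 2 early bars and 18.7% and 20.2% of the 2 late bars.

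miR-10 is encoded in the HOX clusters, whose transcription factors give cells their position along the body axis. In the RefSeq gene table of a later chicken assembly (GRCg7b), the only gene of this number on chromosome 7 is MIR10B, inside HOXD3 between HOXD4 and HOXD8. miR-10 had 14161 and 2403702 reads in the early libraries (days 4 and 6) and 1027513 and 3164 in the late ones (days 12 and 14). Both early shares lay above both late ones, and the nearest pair, days 6 and 14, differed 4.09-fold (log2 -2.03, 95% interval -2.08 to -1.99). On the geometric means the late share was 4.33-fold lower.

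miR-205 is best known from epithelia, where it restrains the transition to a mesenchymal state. miR-205 II had 13 and 2621 reads early and 377 and 6 late. Its shares were 0.0787%, 0.0903%, 0.00686% and 0.0384%. Both early shares lay above both late ones, but the nearest pair, days 4 and 14, rested on 13 and 6 reads and differed 2.05-fold with an interval that included no difference (log2 -1.04, 95% interval -2.43 to 0.36). A second 22 nt sequence with the same seed, miR-205 I, was not listed on day 4 and held 0.179%, 0.120% and 0.166% on days 6, 12 and 14. Summed, the 2 sequences of this seed overlapped between early and late.

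miR-26 is a regulator of cell growth that is abundant in many differentiated tissues. Its only RefSeq gene on chromosome 2, MIR26A1, lies inside CTDSPL, a phosphatase gene. miR-26 had 1023, 82749, 984387 and 4718 reads, or 6.20%, 2.85%, 17.9% and 30.2% of the 22 nt reads on days 4, 6, 12 and 14. Both late shares were above both early ones, by 2.89-fold between the nearest libraries (log2 1.53, 95% interval 1.45 to 1.62), and on day 14 it was the most abundant 22 nt sequence.

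miR-148 is known as a brake on DNA methyltransferases. It had 181, 130914, 689796 and 1579 reads, or 1.10%, 4.51%, 12.6% and 10.1%. The late libraries were close to each other, while the 2 early ones lay farther from each other than day 6 lay from day 14, which were 2.24-fold apart (log2 1.16, 95% interval 1.10 to 1.23). The RefSeq gene MIR148A lies in no other gene, next to NPVF.

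miR-22 is a microRNA of striated muscle, which in the mouse heart takes part in hypertrophic growth. It had 179, 30534, 442081 and 901 reads. Its shares were 1.08% and 1.05% early and 8.04% and 5.76% late. Of the 9 late sequences it was the one with the widest gap between the groups, with the nearest libraries 5.31-fold apart (log2 2.41, 95% interval 2.18 to 2.64). The RefSeq gene MIR22 lies inside TLCD2 in that table.

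let-7 is the classic timing microRNA: in the worm and in vertebrates its mature form accumulates as cells leave the embryonic program, while LIN28 blocks its maturation in early embryos. All 4 let-7 sequences listed in every library were higher late. let-7 I had 62, 8457, 417722 and 144 reads, or 0.376%, 0.291%, 7.60% and 0.921%, with 2.45-fold between the nearest libraries (log2 1.29, 95% interval 0.87 to 1.72). let-7 II had 87, 8830, 201665 and 190 reads, or 0.527%, 0.304%, 3.67% and 1.22%, with 2.31-fold between the nearest (log2 1.21, 95% interval 0.84 to 1.57). In each of the 4 the day 12 share stood well above that of day 14, and day 14 was the late library nearest to the early ones.

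The 2 rarer let-7 sequences had few reads on days 4 and 14. let-7 IV had 33, 1182, 58343 and 38 reads, or 0.200%, 0.0407%, 1.06% and 0.243%. The nearest pair, days 4 and 14, was 1.22-fold apart and its interval included no difference (log2 0.28, 95% interval -0.39 to 0.95). let-7 V had 31, 1147, 56322 and 47 reads, or 0.188%, 0.0395%, 1.02% and 0.301%. Its nearest libraries were 1.60-fold apart (log2 0.68, 95% interval 0.025 to 1.33). For let-7 IV, let-7 V and miR-205 II the separate 95% Wilson intervals of days 4 and 14 overlapped, and 8 of the 11 sequences had intervals that did not.

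Summed over the 7 sequences with the let-7 seed, the reads were 213, 25452, 941694 and 516, and the shares 1.29%, 0.877%, 17.1% and 3.30%. Day 12 stood highest, and day 14 lay above both early libraries. No let-7 sequence of this seed went against this order, as the 3 not listed on day 4 (let-7 III, VI and VII) also lay on the late side by their bound. The order depended on the total. With miR-10 left out of it, each of the 7 overlapped, and let-7 I and let-7 II were lower on day 14 than in both early libraries.

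miR-99 is the first microRNA of a pair of genes with let-7, and is known to target mTOR. It had 20, 10823, 109883 and 153 reads, or 0.121%, 0.373%, 2.00% and 0.979%, with 2.62-fold between the nearest libraries (log2 1.39, 95% interval 1.16 to 1.62). miR-100 carries the same seed (ACCCGTA) and differs from it in the bases after the seed. It held 0.248%, 2.38% and 1.33% on days 4, 6 and 14, and on day 12 the list gave it at 21 nt, with 301263 reads. Summed at 22 nt, this seed overlapped between the groups (0.369%, 2.75%, 2.00% and 2.31%).

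miR-30 is abundant in heart muscle and is known to restrain autophagy and connective tissue growth. miR-30 I had 10, 2148, 32630 and 33 reads, or 0.0606%, 0.0740%, 0.594% and 0.211%. Both late shares were above both early ones, by 2.85-fold between the nearest libraries (log2 1.51, 95% interval 1.02 to 2.01). With every length that shares its first 18 bases added, the groups overlapped (0.0569%, 0.380%, 1.26% and 0.206% of all listed reads). Listed reads are the known reads together with those of sequences given as absent from miRBase.

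**Figure D2:**
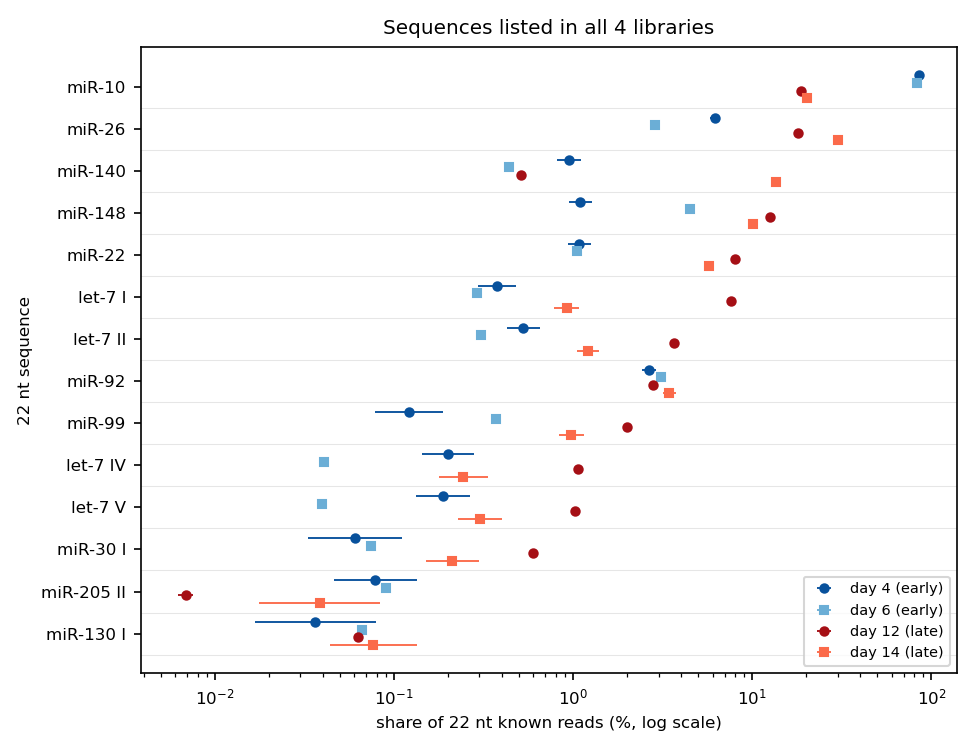
Share of the 22 nt known reads (%, log axis) of the 14 sequences listed in all 4 libraries, with 1 point for each library and bars for the 95% Wilson interval. The blue points of miR-10 and miR-205 II (days 4 and 6) lie to the right of the red ones (days 12 and 14), 9 sequences lie the other way, and miR-140, miR-92 and miR-130 I are mixed.

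The 3 overlapping sequences did so in different ways. miR-92 belongs to the cluster of miR-17, known for proliferation. It had 438, 89525, 153926 and 539 reads and kept almost 1 level, at 2.65%, 3.08%, 2.80% and 3.45% (log2 0.12). miR-140 is the microRNA of cartilage, and its only RefSeq gene on chromosome 11 lies inside WWP2. It had 156, 12746, 27979 and 2111 reads and was high in 1 library, with 0.945%, 0.439%, 0.509% and 13.5% on days 4, 6, 12 and 14. miR-130 I had 6, 1930, 3478 and 12 reads, or 0.0363%, 0.0665%, 0.0633% and 0.0767%, and its day 6 share lay above that of day 12.

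The shares of a library sum to 100%, so a larger share of miR-10 goes with smaller shares of the others. Whether miR-10 fell or the others rose cannot be told from shares. Taking miR-10 out of the total raised the other shares 7.03-fold and 5.81-fold on days 4 and 6 but 1.23-fold and 1.25-fold on days 12 and 14, a shift of -2.36 in every log2 ratio of late over early. None of the 9 late sequences stayed on the late side (0 of 13, 0%). Their log2 ratios then lay between -0.024 and 0.64, and the median over the 13 was 0.039. miR-26 became 43.6%, 16.6%, 22.03% and 37.8% of the remaining reads and let-7 I became 2.64%, 1.69%, 9.35% and 1.15%. miR-22, at 7.62%, 6.11%, 9.89% and 7.22%, overlapped because its day 14 share lay below that of day 4.

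Without miR-10, 3 of the 13 sequences (23.1%) were higher early. They were miR-92 with 18.7%, 17.9%, 3.44% and 4.32%, miR-205 II with 0.554%, 0.525%, 0.00844% and 0.0481%, and miR-130 I with 0.256%, 0.386%, 0.0778% and 0.0962%. miR-92 and miR-130 I thus overlapped on one scale and were early on the other. On days 4 and 14, miR-130 I rested on 6 and 12 reads and miR-205 II on 13 and 6, and no count interval was computed on this scale.

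Relative to the geometric mean of the 14 sequences, 2 (14.3%) were higher late and 4 (28.6%) higher early, together 42.9%. The late ones were miR-22 (log2 1.15) and miR-30 I (0.88), and the early ones were miR-205 II (-3.90), miR-10 (-3.64), miR-92 (-1.40) and miR-130 I (-1.02). miR-30 I was barely apart, at 0.1537 of the geometric mean on day 6 and 0.1540 on day 14, where it had 33 reads. On the RPM deposited by the authors, 4 sequences were higher late (miR-26, miR-22, let-7 IV and let-7 V) and none higher early. miR-10 itself overlapped there, at 5070, 259965, 27403 and 13860 RPM on days 4, 6, 12 and 14. No sequence lay on the late side under the share, the share without miR-10 and the geometric mean alike, and miR-205 II was early under all 3.

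**Figure D3:**
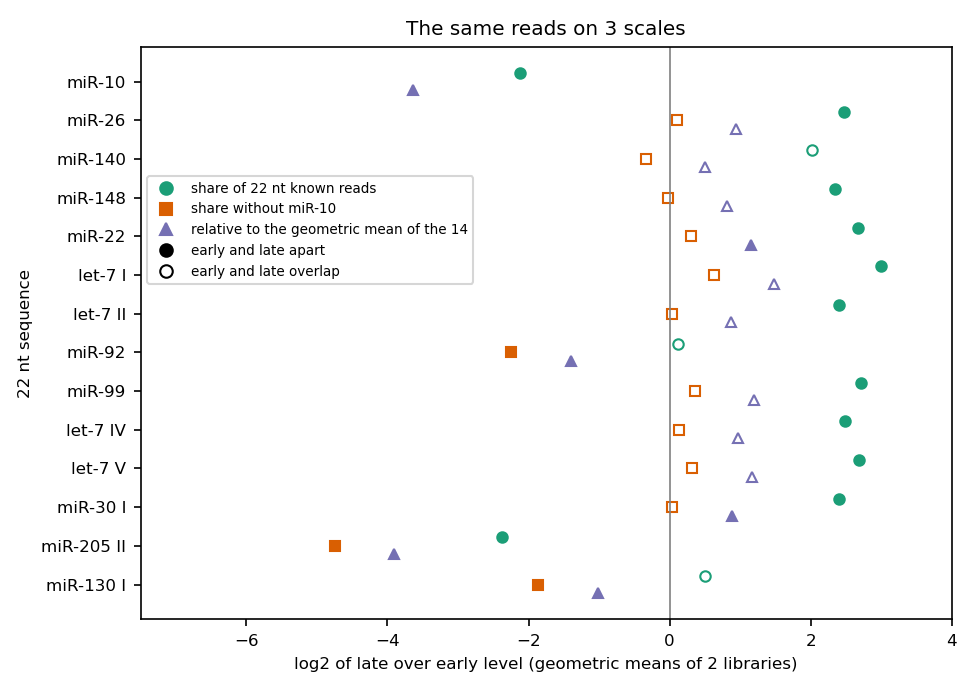
Log2 ratio of late over early level (geometric means of the 2 libraries of each group) of the 14 sequences on 3 scales, with filled marks where the groups lie apart and open marks where they overlap. The 9 sequences at 2.34 to 2.9998 on the share (circles) lie between -0.024 and 0.64 without miR-10 (squares), where miR-92, miR-205 II and miR-130 I carry the filled marks.

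A ratio between the reads of 2 sequences of a library needs no total. Of the 91 pairs among the 14 sequences, 40 had ratios that lay apart between early and late, and without miR-10 these were 28 of 78. With 2 libraries against 2, part of the pairs would lie apart even in a random order of the libraries. That rate was not computed, so these counts alone show no difference between early and late. Among the 9 late sequences themselves 0 of 36 pairs lay apart, so these data gave no order of change among them. miR-148 per read of miR-26, for example, was 0.177, 1.58, 0.701 and 0.335 on days 4, 6, 12 and 14.

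Every pair that lay apart included miR-10, miR-205 II, miR-92 or miR-130 I. miR-10 was lower late against 12 of its 13 partners and miR-205 II against 12 of 13, the exception being each other (1089, 917, 2726 and 527 reads of miR-10 per read of miR-205 II). miR-92 was lower late against 9 partners and higher against miR-10 and miR-205 II. miR-130 I was lower late against 7 partners and higher against 3. On days 4 and 14, miR-205 II rested on 13 and 6 reads and miR-130 I on 6 and 12. No count interval was computed for the ratios, and some pairs were barely apart. The reads of miR-92 per read of miR-130 I were 73.0 and 46.4 early, and 44.3 and 44.9 late.

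Against miR-92, 8 of the 9 late sequences were higher late, and let-7 IV overlapped. The share of miR-92 kept almost 1 level, so ratios to it largely repeat the share calls. Against miR-140, which also overlapped by share, none of the 9 lay apart. There were 2.34 and 0.924 reads of miR-26 per read of miR-92 early, and 6.40 and 8.75 late. let-7 I had 0.142 and 0.0945 reads per read of miR-92 early, and 2.71 and 0.267 late. miR-10 had 32.3 and 26.8 reads per read of miR-92 early, and 6.68 and 5.87 late. miR-26, miR-148, miR-22, miR-99, miR-30 I, let-7 I and let-7 II were each higher late against 4 partners, let-7 V against 3 and let-7 IV against 2.

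**Figure D4:**
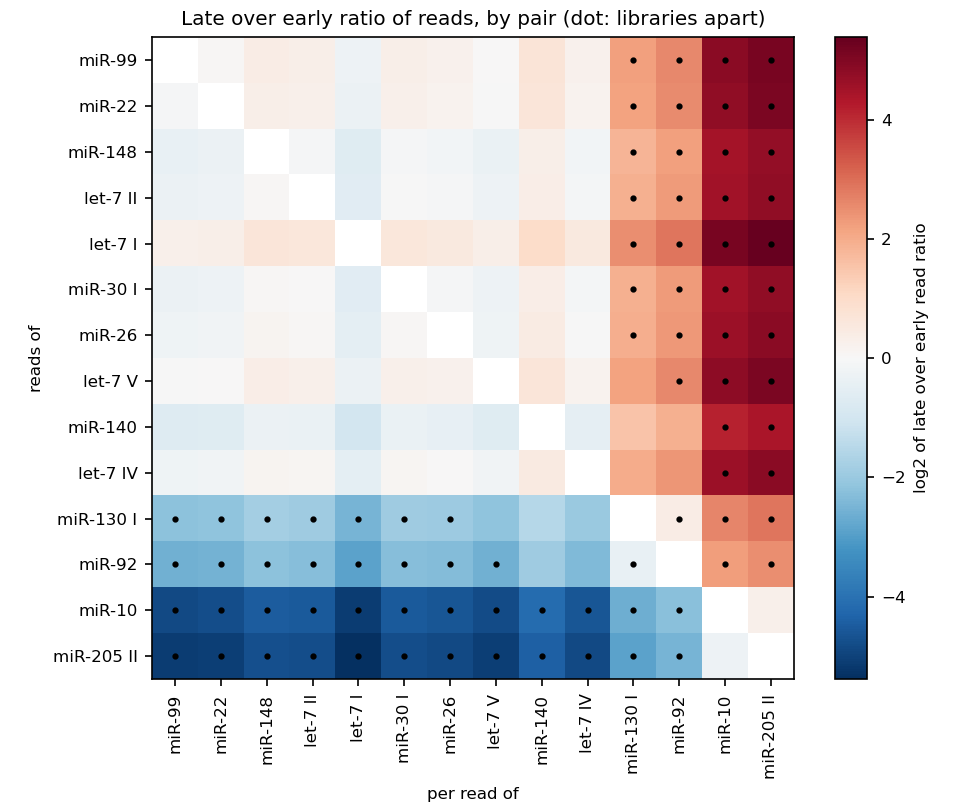
Log2 of the late over early ratio of reads for every pair of the 14 sequences, reads of the row per read of the column, with red for higher late, blue for lower late and a dot where both late ratios lie on one side of both early ones. The dots form bands at miR-130 I, miR-92, miR-10 and miR-205 II, and no dot lies among the 9 late sequences (0 of 36 pairs).

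Several of these microRNAs are neighbours on the genome, where hairpins close together on a strand can come from 1 primary transcript. let-7 I and let-7 II start 411 nt apart on chromosome 12, and let-7 I and let-7 VI start 831 nt apart on chromosome 1. miR-99 starts 751 nt before let-7 III on chromosome 1, let-7 I and let-7 VII start 198 nt apart on chromosome 26, and miR-100 starts 8091 nt before let-7 I on chromosome 24. miR-100 overlapped and the others were late, some by their bound. let-7 I is a member of all these pairs but that of miR-99, so they are not separate observations, and since it has 4 loci its reads cannot be assigned to any of them. On chromosome 1, miR-92 starts 116 nt from miR-19 I and 424 nt from miR-19 II, which start 308 nt apart. Both miR-19 sequences were late by their bound while miR-92 overlapped. However, miR-19 II was listed at 23 nt in the early libraries (7 and 1326 reads) and had 6 reads on day 14. With all lengths summed, miR-19 II overlapped and miR-19 I was still higher late. The day 14 share of miR-19 I then rested on 22 reads and was close to that of day 6 (0.1375% against 0.122% of listed reads).

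Of the 70 seeds among the 88 sequences, 11 were present in all 4 libraries. Summed by seed, 5 were higher late (let-7, miR-26, miR-148, miR-22 and miR-30), miR-10 was higher early and 5 overlapped. Without miR-10 in the total, 0 of 10 seeds were higher late and 3 were higher early. The seed of miR-30 was late at 22 nt only. Its second sequence, miR-30 II, was listed at 22 nt on day 14, at 23 nt on day 4 (14 reads) and at 24 nt on day 6 (56090 reads). At any length miR-30 held 0.141%, 5.56%, 8.22% and 0.320% of known reads, with day 14 below day 6.

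Of the 88 sequences, 15 were listed in 3 libraries, 27 in 2 and 32 in 1. For these 74 an unlisted value was set at its upper bound. On this rule 13 of the 74 (17.6%) were higher late and 1 (1.35%) higher early, and over all 88 sequences 22 (25%) and 3 (3.41%) were. Among the 14 called this way, 10 had no other length listed in the library where they were missing. The other 4, all late, were miR-181 I, miR-21, miR-19 I and miR-19 II. For these the bound does not hold, so their calls at 22 nt are uncertain. Without all sequences listed at another length where they were missing, 18 of 65 were higher late and 3 higher early.

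miR-196 was the one sequence on the early side. It is the other microRNA of the HOX clusters and cleaves HOX transcripts in the mouse. Its sequence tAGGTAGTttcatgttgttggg lies at chr2:32586206-32586227 on the minus strand and at chr27:3553120-3553141 on the plus strand, and its RefSeq genes of the same chromosomes, MIR196B and MIR196A1, lie between HOXA7 and HOXA10 and between HOXB13 and HOXB8. It held 0.139% and 0.0864% early and 0.00151% on day 12, and its absence from the day 14 list bounds it at 0.0384% there. It stayed early without miR-10 and relative to the geometric mean, but with 3 times the bound on day 14 it overlapped. Both HOX cluster numbers, miR-10 and miR-196, were thus on the early side, where 3 of all 88 sequences (3.41%) lay. The call of miR-196 rested on 23 reads on day 4 and on its absence on day 14. On the deposited RPM, miR-10 overlapped.

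Of the 13 called late by a bound, the 2 with the highest shares were listed at 23 nt in the early libraries. miR-181 I, aACATTCAacgctgtcggtgag at chr17:10218520-10218541 and at a second locus on chromosome 8, held 4.59% on day 12 and 5.17% on day 14. The early lists named it at 23 nt with 172 reads on day 4 and 39797 on day 6. With all lengths summed it was still higher late, at 0.979%, 1.20%, 3.26% and 5.06% of listed reads. miR-21, tAGCTTATcagactgatgttga, known from fibroblasts and the stressed heart, held 3.36% and 0.742% late and was listed at 23 nt early with 523 and 12837 reads. These early reads of miR-21 came from the lists of sequences given as absent from miRBase, and neither early known list held it. With all lengths summed, miR-21 overlapped (2.98%, 0.386%, 2.39% and 0.725%), so miR-21 was late at 22 nt and not over all lengths.

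The remaining late sequences were missing on day 4 unless said otherwise. let-7 III held 0.185% on day 6, 2.91% on day 12 and 0.384% on day 14, and let-7 VI 0.00338%, 0.734% and 0.122%. let-7 VII held 0.0131%, 0.131% and 0.115%. These 3 carry the let-7 seed and differ from let-7 I only after it. miR-2188 held 0.0622%, 0.623% and 0.505%, and it was the one sequence with no other length listed that stayed late without miR-10.

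miR-133 I, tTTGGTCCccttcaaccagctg at chr23:4664098-4664119, is the muscle microRNA that restrains serum response factor and cell cycle genes. It held 0.0927% on day 6, 0.268% on day 12 and 0.454% on day 14. Late shares were 2.90-fold above day 6 at the nearest. Day 14 also listed miR-133 II, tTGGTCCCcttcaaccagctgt, with 151 reads (0.966%), which lies on chromosome 2, starts at the next base of the shared stretch and so has another seed. miR-16 held 0.185%, 0.343% and 0.256%, and miR-2964 held 0.0975%, 0.150% and 0.256%. miR-19 I held 0.109% on day 4 against 0.415% and 0.141% late, and was listed at another length on day 6.

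**Figure D5:**
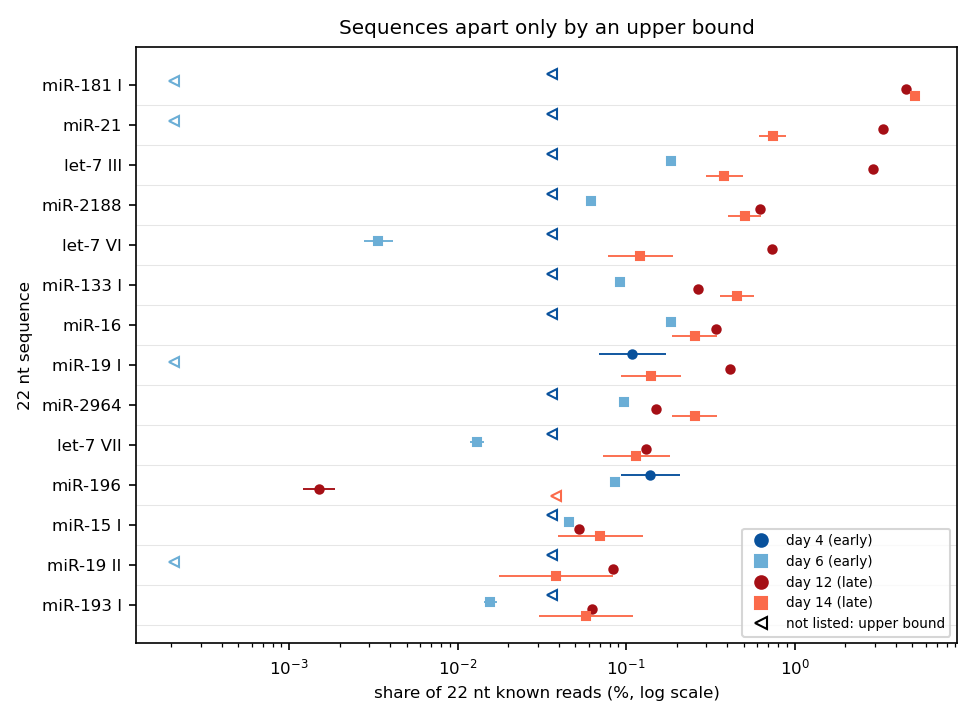
Share of the 22 nt known reads (%, log axis) of the 14 sequences placed on one side with the help of an upper bound, with 95% Wilson intervals where listed and open triangles at the bound where not listed. The triangles of day 4 stand at 0.0363% and those of day 6 at 0.000207%, and miR-196 is the one sequence with its early points to the right. The triangles of miR-181 I, miR-21, miR-19 I and miR-19 II stand where another length was listed and may lie too low.

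Some abundant sequences fell on neither side. The sequence listed as both miR-204 and miR-211, tTCCCTTTgtcatcctatgcct, held 0.0787%, 0.0291% and 7.24% on days 4, 6 and 12 and was not listed on day 14, so that it was high in 1 library. miR-122, the microRNA of hepatocytes, held 0.170% on day 6, 0.00149% on day 12 and 0.134% on day 14. A further 23 sequences were listed on days 6 and 12 only, of which 21 were below the day 4 bound in both. At such shares the lists of days 4 and 14 could not have named them. Their shares on days 4 and 14 are not known. Of the 23, 15 were higher on day 6 and 8 on day 12.

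Described by list, let-7 had 4 of 4 sequences listed in every library on the late side (median log2 2.59, against 2.40 over the 14) and 3 more by the bound. These stand beside 64.3% late among the 14 and 17.6% late by the bound among the 74, and without miR-10 none of the 4 was late. The HOX cluster list had miR-10 and, by the bound, miR-196 early, beside 14.3% early among the 14 and 1.35% early by the bound among the 74. The miR-17 related list had 1 of 5 sequences in every library, miR-92, which overlapped, and 2 late by the bound. These 2 were both miR-19, and both were listed at 23 nt where they were missing. The miR-15/16 list had no sequence in every library and 2 of 5 late by the bound. With 3 times the bound miR-16 stayed late and miR-15 I overlapped. miR-15 I was 1.14-fold apart at the nearest and had 11 reads on day 14. Summed by name, miR-15 was lower on day 12 (0.0524%) than on day 6 (0.0638%). Without miR-10, the miR-19, miR-15 and miR-16 sequences overlapped. No sequence of the smooth muscle list (miR-143 and miR-145) was listed at any length, and the endothelial list and the miR-23/27/24 list had none at 22 nt.

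Markers of other cell types also differed between the libraries, here as shares of known reads of any length on days 4, 6, 12 and 14. miR-126 of endothelium held 0.353%, 1.90%, 11.4% and 1.84%. The white blood cell list (3 of 4 numbers found) held 0.0764%, 0.563%, 1.99% and 0.614%, and the epithelial list (4 of 5 found, miR-205 among them) 0.0764%, 0.308%, 0.103% and 0.201%. The neural list (miR-9 and miR-124) held 0.118%, 0.179% and 0.0223% and was not listed on day 14. miR-140 of cartilage held 0.917%, 0.388%, 0.365% and 13.2%. miR-144 of red blood cells was listed on day 4 alone (0.0353%), and miR-302 of embryonic cells held 0.00535% on day 6 and 0.000366% on day 12. Their part in the differences above was not tested.

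The likeness of the libraries depended on the measure and on miR-10. Over the 14 sequences the Spearman correlation of reads was 0.846 between the early libraries and 0.763 between the late ones, while pairs of an early and a late library ran from 0.719 to 0.912. The highest was that of days 4 and 14, the 2 libraries with the fewest listed reads. By the Pearson correlation of log reads the order differed, with 0.916 for days 4 and 6 and 0.855 for days 4 and 14. Without miR-10 these became 0.841 and 0.904, and days 4 and 14 were then the closest pair by both measures. These are descriptions across sequences, which share library and depth and are not independent.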

How the data were processed

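The authors trimmed adapters, mapped unique tags with BLAT to Gallus gallus v.2.1 with at most 1 mismatch and searched miRBase 19. The submitters' processing notes also name TopHat and Cufflinks. The authors deposited the read count (abundance) of each known sequence, which was used as it stands, and its RPM, which was the count times 1 constant for each library and served as an alternative. Lines without a sequence on day 12 (1 known, 1 absent from miRBase) and target lists were not used. Shares, 95% Wilson intervals and log2 ratios were computed with Python 3.11.15, numpy 2.4.6 and scipy 1.17.1. The side call was tested on simulated libraries in which 1 sequence was raised late and the others kept their proportions. Low counts, bounds and a change of miR-10 were not simulated. No genome was used, and RefSeq GRCg7b gave neighbours only, for 10 of 19 loci with 1 candidate gene on the chromosome. Members and lists were chosen with earlier results of these data known. Named were all sequences listed in 4 libraries, the 3 most abundant of each library, the 10 of highest share called by bounds with others added after their values were seen, and seeds with several members. Alternatives covered the total, read minimum, bound, summing by seed, name or length, and each library left out.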

Additional observations from a re-analysis of the deposited data

How the results depend on the processing

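The 9 late sequences depend on the total used, and the few listed reads of days 4 and 14 limit every value under about 10 reads. The count of 11 of 14 sequences apart became 4 of 14 on RPM (4 late, 0 early) and 3 of 13 without miR-10 (0 late, 3 early). It became 6 of 14 relative to the geometric mean. With the same seed summed it was 6 of 11, and with the same miRBase name summed 7 of 11. Leaving out each library in turn gave 13 to 23, the highest being 23 of 25 sequences without day 4, where more sequences could be compared and fewer libraries had to agree in side. The count was 11 of 14 with known reads of any length or reads absent from miRBase in the total. With at least 10 and 20 reads it was 10 of 12 and 9 of 11. With every length of the same first 18 bases summed it was 14 of 25. It was 8 of 14 with Wilson intervals apart and 9 of 14 with at least 2-fold. The count of 25 of 88 with bounds became 21 of 88 with a bound of 3 times the lowest abundance. Without sequences listed at another length it was 21 of 65. It was 8 of 87 without miR-10 and 12 of 88 relative to the geometric mean. The 6 of 11 seeds apart became 3 of 10 without miR-10. The ratio of miR-148 turned from 2.34 to -0.024 without miR-10. Of the log2 ratios of the 14 sequences under these totals and with each library left out, 34 stayed within the 95% count interval of the main value and the others moved beyond it. The ratio of miR-148 was the one among the 11 sequences apart to change sign. The overlapping miR-92, miR-140 and miR-130 I changed sign in 8 cases, among them -2.24, -0.34 and -1.86 without miR-10, and without day 14 miR-140 was -0.34 and miR-92 -0.030. The fits without miR-10 or with the geometric mean for bounds and seeds, and the pair ratios (40 of 91, and 28 of 78 without miR-10), were added after seeing the data. No paired analysis was possible because each stage had 1 library.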
